A study of Mus musculus with 6 samples.

Results

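Hspb8, a small heat shock protein gene, was described together with its partner Bag3 and the main cytosolic heat shock chaperone genes in leukaemic mouse B cells that lacked or carried gamma-catenin (plakoglobin, encoded by Jup). The set holds 10 listed genes, each read from its brightest probe set, by the mean of the 6 arrays, among those annotated with a single gene symbol. Such a probe set was found for 9 of the 10, out of 19938 genes tested in all, and Hsf1 had none, so it was not analysed here. Hspb8 was taken up because earlier results of these data had it among the largest falls. Its own difference is therefore given as a description with no test, and the other members were chosen for what they do.

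There were 3 Jup-/- (KO) and 3 Jup+/+ (WT) samples on the C57BL/6 background, labelled as biological replicates, each on 1 Affymetrix whole-transcript array. CD45.1+ mice first received CD45.2+ fetal liver cells of either genotype, so the knockout was carried by the whole donor graft and the host was not mutant. Bone marrow of these chimeras was infected with a retrovirus that carries BCR-ABL1, the kinase fusion made by the Philadelphia translocation, linked to green fluorescent protein, and was passed to lethally irradiated recipients. Fluorescent CD45.2+ B220+ BP-1+ B cells were sorted at day 21 in both groups, so every sample carried the oncogene and came from a transplanted host. The sources used here do not say whether a sample pooled several mice.

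Small heat shock proteins bind unfolding proteins without using ATP and keep them from aggregating. HSPB8 works as a pair with BAG3, which ties it to the ATP-driven HSP70 chaperones and, with the ubiquitin ligase CHIP, hands damaged proteins to autophagy, a route best known from muscle. J-domain proteins load HSP70 with its substrates, the HSP110 proteins reset it, and HSP90 holds kinases such as BCR-ABL1 in a foldable state. When unfolded protein builds up, the transcription factor HSF1 binds heat shock elements and many of these genes rise together.

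The sorted cells carried RNA of the labelled cell type. All 13 measured B-lineage markers of 14 listed lay above the array median on each of the 6 arrays. So did 7 of 20 myeloid markers, so this level alone does not tell B cells from other cells. Of the B-lineage markers 0 passed in limma. At an unadjusted p under 0.05, Rag1 was higher in KO (0.50, SE 0.16) and Enpep, the BP-1 gene, lower (-0.23, SE 0.09). Of all probe sets, 9.22% had such a p in either direction. Jup measured 7.04, 7.06 and 7.27 in the KO arrays, against 8.04, 7.62 and 8.51 in the WT arrays, a log2 difference of -0.93 (SE 0.20) that missed the threshold (limma adjusted p = 0.171). Array medians were 7.53 to 7.61 on the log2 scale. Xist and the Y-linked genes set WT replicate 2 apart as the only male-like array (Xist 6.20, against 13.03 to 13.38 in the other 5). In all, 11 probe sets were higher and 15 lower in KO among 21789 tested (limma, adjusted p under 0.05).

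Hspb8 (probe set 10533050) had values of 7.96, 7.03 and 6.94 in the KO arrays, against 9.21, 9.35 and 9.52 in the WT arrays, on the log2 scale of RMA. The groups did not overlap, and the gap between the highest KO array and the lowest WT array was wider than the whole WT range. The KO mean was 7.31 ± 0.56 and the WT mean 9.36 ± 0.16 (SD, n = 3 each), so that the KO level was 4.14-fold lower (-2.05 on the log2 scale, SE 0.24). KO replicate 1 kept the most Hspb8 RNA. As a deviation from the WT mean it was at -1.40, while KO replicates 2 and 3 were at -2.33 and -2.42. On those 2 arrays the probe set also lay below the array median, where RMA compresses differences. Leaving out 1 array at a time kept the log2 difference between -2.37 and -1.87, with -2.37 without KO replicate 1 and -2.05 without the male-like WT replicate 2. In a bulk RNA sample, fewer cells that express a gene and less RNA per cell cannot be told apart.

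Bag3 (probe set 10557992), the co-chaperone that binds HSPB8, was at 7.53, 7.59 and 7.88 in the KO arrays, against 7.84, 8.19 and 8.53 in the WT arrays. The highest KO array lay just above the lowest WT array, so the groups overlapped by 1 array on each side. The KO mean was 7.67 ± 0.19 and the WT mean 8.18 ± 0.34 (SD, n = 3 each), a log2 difference of -0.51 (SE 0.17, 95% interval -0.90 to -0.13). It missed the threshold (limma adjusted p = 0.392 over all probe sets tested), and this p lay between 0.122 and 0.953 under the alternatives tried. Without WT replicate 3 the difference was -0.34 and without WT replicate 1 it was -0.69.

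**Figure D1:**
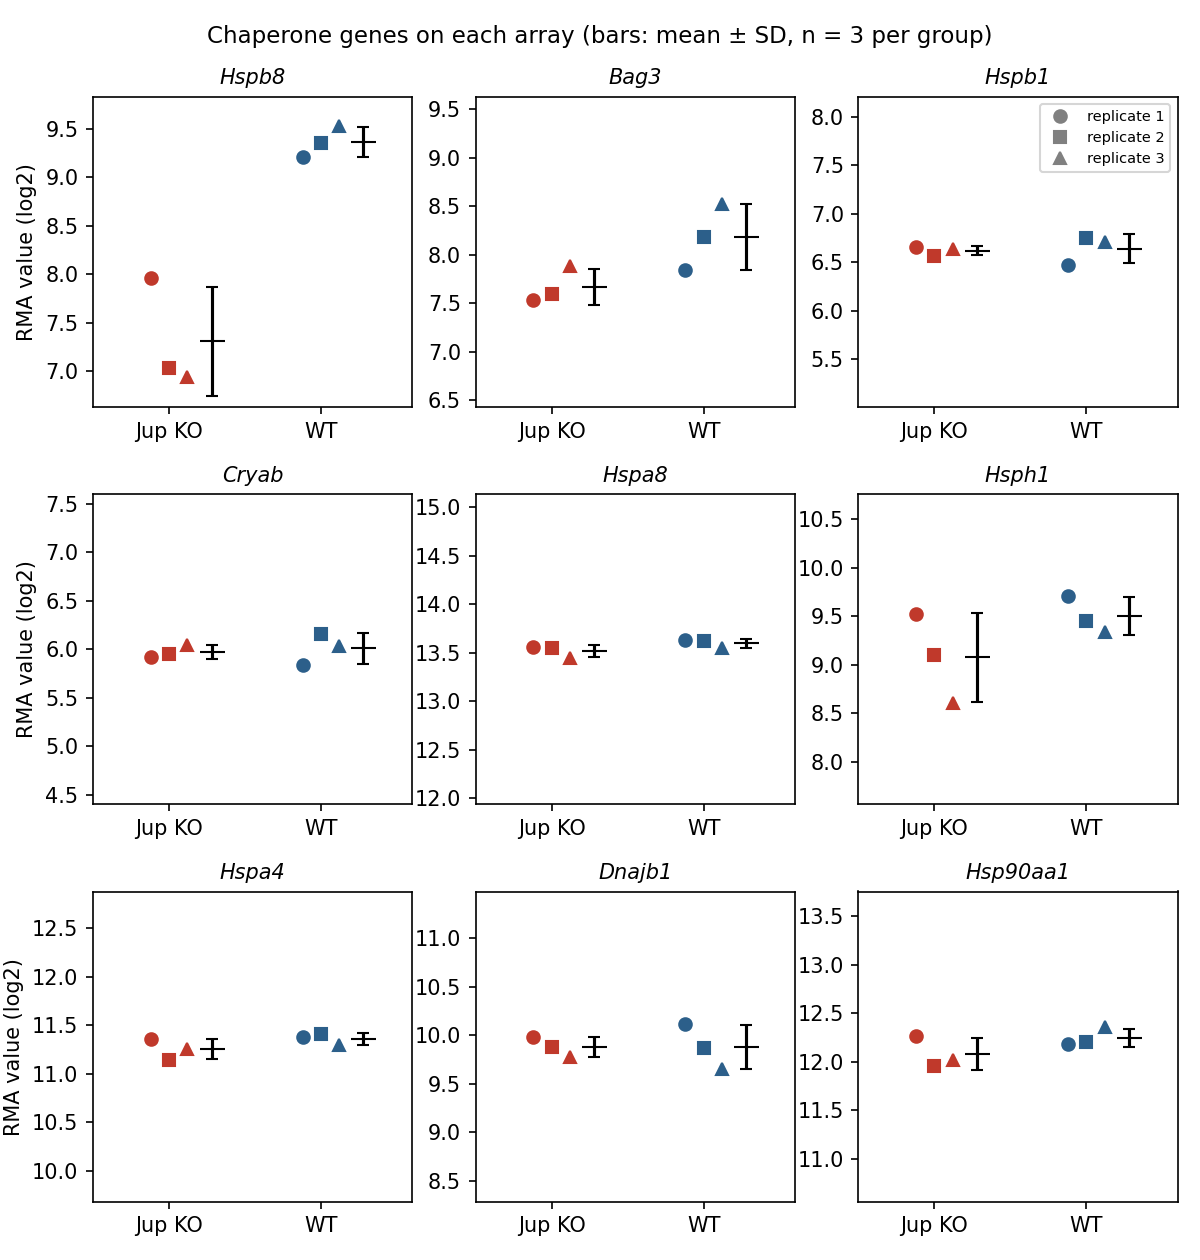
RMA log2 values of the 9 measured chaperone genes on each array, KO in red on the left and WT in blue on the right of each panel, with symbols for the replicate and bars for the mean ± SD (n = 3 each). All panels span the same log2 height. Hspb8 is the only panel in which the KO and WT arrays do not overlap.

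Hspb8 and Bag3 thus had lower KO means together, but by different amounts and on different arrays. Relative to its WT mean Bag3 was at -0.65, -0.59 and -0.30 in KO replicates 1, 2 and 3. The array with the highest Hspb8 among the KO samples was the one with the lowest Bag3. Within WT both genes had their lowest value in replicate 1 and their highest in replicate 3, and Bag3 spread more widely (-0.34 to 0.34) than Hspb8 (-0.16 to 0.16). Taking the Bag3 deviation from that of Hspb8 on each array left -0.75, -1.74 and -2.12 in KO replicates 1, 2 and 3. The same quantity was 0.19, -0.01 and -0.18 in WT replicates 1, 2 and 3. The difference in log2 change between the genes was -1.54 (SD 0.70 among KO arrays and 0.18 among WT arrays). It is given with no test, since Hspb8 was chosen for its fall. By the root mean square distance between centred profiles over the 6 arrays, Hsph1 was the member nearest to Hspb8 (0.85, rank 159 of 17511 genes) and Bag3 came next (0.88, rank 207). The KO fall for which Hspb8 was chosen dominates this distance, so the rank largely follows the size of each gene's own fall. Both lay far from Hspb8 beside the nearest gene, Zdhhc2 (0.22), and the remaining members lay between 0.97 (Hsp90aa1) and 1.08 (Dnajb1).

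**Figure D2:**
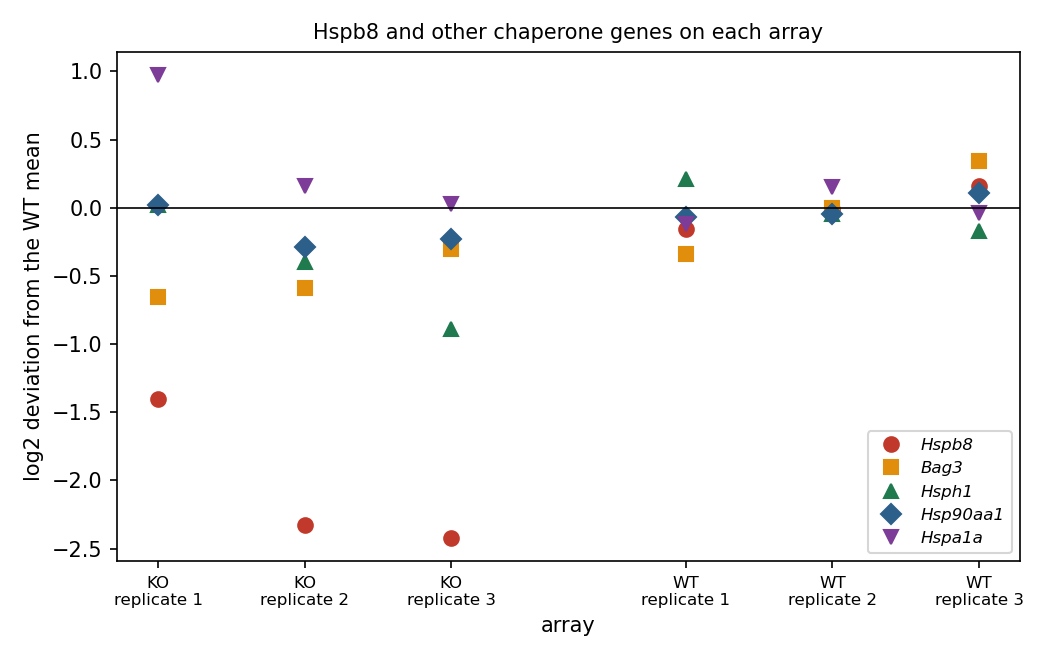
Deviation of 5 chaperone genes from their WT means on each array (log2 units, vertical axis), with the 3 KO arrays left of the 3 WT arrays. Hspb8 is at -1.40, -2.33 and -2.42 in KO, Bag3 is lowest in KO replicate 1, Hsph1 is lowest in KO replicate 3, and Hspa1a stands out upward in KO replicate 1.

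The promoter regions are shown because a joint response of these genes to HSF1 would run through heat shock elements there. RefSeq windows (GRCm38.p6) of 250 bases before to 50 after the transcription start matched 6 of the 10 members by symbol. Cryab, Hspa8, Hsp90aa1 and Hsf1 are named only. Each window was searched for a pair of inverted units, GAANNTTC or TTCNNGAA, both of which read the same on either strand, and for runs of 3 units, GAANNTTCNNGAA or TTCNNGAANNTTC, which contain the pairs. Capitals mark the matched letters in these stretches, given 5′ to 3′ on the gene's strand.
Hspb8, chr5:116422855-116423014, minus strand, bases -150 to 10: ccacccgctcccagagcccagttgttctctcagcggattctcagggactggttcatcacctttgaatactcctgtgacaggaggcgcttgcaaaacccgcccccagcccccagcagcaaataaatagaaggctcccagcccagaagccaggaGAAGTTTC
Bag3, chr7:128523618-128523632, plus strand, bases 36 to 50: gggaccaGAAGTTTC
Hspb1, chr5:135887769-135887918, plus strand, bases -150 to -1: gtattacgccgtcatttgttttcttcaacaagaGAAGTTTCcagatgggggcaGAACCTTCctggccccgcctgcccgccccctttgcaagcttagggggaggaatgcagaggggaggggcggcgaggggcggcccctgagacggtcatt
Hsph1, chr5:149636288-149636385, minus strand, bases -70 to 28 of the downstream of its starts: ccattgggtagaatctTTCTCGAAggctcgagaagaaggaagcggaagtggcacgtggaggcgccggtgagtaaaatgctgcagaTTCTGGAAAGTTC

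Matches of a pair of units were found in the windows of 4 of the 6 members. Such a pair occurs in 15.1% of all 32851 windows of that length. Hspb8 had a single pair, at bases 3 to 10 after the start, and Bag3 a single pair at bases 43 to 50. Both pairs, and the first of those of Hspb1, are spelled GAAGTTTC, letters that with their reverse complement GAAACTTC occur in 1.21% of all windows. That spelling was compared after the matches had been seen. A run of 3 units was found only in Hsph1 among these members, and 0.603% of all windows hold one. The windows of Hspa4 and Dnajb1 held no match, which says only that these letters are not there. A match in letters is not a measured binding site.

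The other small heat shock protein genes among the members had differences near 0. Hspb1, which encodes HSP27, measured 6.66, 6.57 and 6.64 in the KO arrays, against 6.47, 6.75 and 6.71 in the WT arrays. Its log2 difference was -0.02 (SE 0.09, 95% interval -0.23 to 0.19). Cryab, the alpha-B crystallin gene, measured 5.91, 5.95 and 6.05 in the KO arrays, against 5.84, 6.16 and 6.03 in the WT arrays, a log2 difference of -0.04 (SE 0.10, 95% interval -0.26 to 0.18). For both genes the groups overlapped and all 6 values lay below the array medians, so a change at such low signal may be compressed. Their signs turned with 1 array left out. The second Hspb1 probe set gave a log2 difference of -0.03 (SE 0.10).

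HSP70 and its helpers differed little. Hspa8, the constitutive cytosolic HSP70, measured 13.56, 13.55 and 13.45 in the KO arrays, against 13.63, 13.62 and 13.55 in the WT arrays. The difference of -0.08 (SE 0.07, 95% interval -0.25 to 0.09) was alike on its 3 probe sets (-0.08 on each), which share their RefSeq accession. Hspa4, an HSP110-type exchange factor, measured 11.36, 11.14 and 11.25 in the KO arrays, against 11.37, 11.41 and 11.29 in the WT arrays (log2 difference -0.11, SE 0.08). Its groups overlapped through KO replicate 1. Dnajb1, the J-domain partner of HSP70 in the heat shock response, measured 9.98, 9.88 and 9.78 in the KO arrays, against 10.11, 9.87 and 9.65 in the WT arrays, with means of 9.88 in both groups. Its 95% interval, -0.28 to 0.28, leaves room for a modest change either way, and its sign turned under some alternatives.

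Hsph1, the HSP110 of the heat shock response, varied most among the remaining members. It measured 9.52, 9.11 and 8.61 in the KO arrays, against 9.71, 9.46 and 9.33 in the WT arrays. KO replicate 1 lay within the WT range, and the other 2 KO arrays lay below every WT array. The log2 difference of -0.42 (SE 0.21, 95% interval -0.90 to 0.06) did not pass (limma adjusted p = 0.608). It was -0.19 without KO replicate 3 and -0.64 without KO replicate 1, so KO replicate 3 carried much of it. Hsp90aa1, the inducible HSP90, measured 12.27, 11.96 and 12.02 in the KO arrays, against 12.18, 12.20 and 12.36 in the WT arrays. Its difference of -0.17 (SE 0.10, 95% interval -0.40 to 0.07) was -0.16 and -0.20 on its other probe sets, and again KO replicate 1 lay within the WT range.

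**Figure D3:**
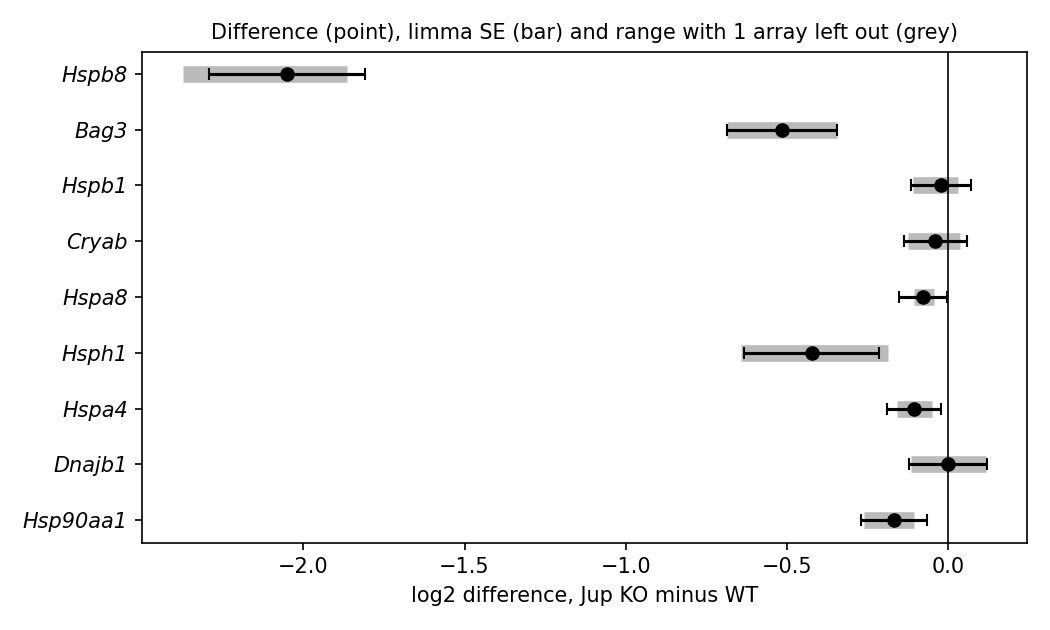
Log2 difference, KO minus WT, of the 9 measured chaperone genes (points), with limma's standard error (bars) and the range of the difference when 1 array is left out (grey). Hspb8 is at -2.05, Bag3 at -0.51 and Hsph1 at -0.42, and the other 6 lie between -0.17 and 0.

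Counted over the set, the KO mean was below the WT mean in all 9 measured members. Of these, Hspb8 was chosen for its fall, and Dnajb1 was level (-4.7e-05), with a sign that turned under some alternatives. The median log2 difference was -0.11, or -0.09 without Hspb8. Over all probe sets tested 55.8% had a lower KO mean and the median was -0.02. Of the 8 members other than Hspb8, 0 passed in limma after adjustment and 1, Bag3, had an unadjusted p under 0.05. The background shares are 0.0688% of probe sets called lower in KO, 0.0505% called higher and 9.22% with an unadjusted p under 0.05. In 0 of these 8 did all KO arrays lie below all WT arrays, which 8.08% of probe sets did, and in 0 did they all lie above, which 5.94% did. Hspb8 is left out of the counts over these 8 because it was chosen for its fall. Averaged over the 8, the KO arrays deviated from the WT mean by -0.08, -0.21 and -0.22, and the WT arrays by -0.03 to 0.03.

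The wider chaperone families were followed through gene lists. The counts on these lists and on the later ones are to be read beside the shares over all probe sets. A lower KO mean was found in 55.8%, an unadjusted p under 0.05 in 9.22%, and a call in limma in 0.0688% (lower) and 0.0505% (higher). All KO arrays lay below all WT arrays in 8.08% and above them in 5.94%. Among the small heat shock protein genes other than Hspb8, which was chosen for its fall, the lowest and the highest differences were those of Hspb2 (-0.13, SE 0.14) and Hspb6 (0.19, SE 0.11), and Hspb2 is named after its value was seen. All 6 BAG family genes were measured and 0 passed in limma. Bag3 was the only one with an unadjusted p under 0.05, and the other 5 lay between Bag5 at -0.05 and Bag4 at 0.04, with Bag5 named after its value was seen. The median over the BAG genes was -0.05.

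HSP90 and its co-chaperones, which act on kinases and steroid receptors, had lower KO means in 12 of 13 measured genes, with a median of -0.17. In limma 0 passed and 3 were lower at an unadjusted p under 0.05, against 0 higher. Of all probe sets, 9.22% had such a p in either direction and 55.8% had a lower KO mean. Ptges3, the co-chaperone p23, was lowest (-0.24, SE 0.09) and the myosin chaperone gene Unc45a highest (0.11, SE 0.08). By the mean deviation of the list, KO replicates 1, 2 and 3 were at -0.02, -0.21 and -0.23, and the WT arrays between -0.01 and 0.01. KO replicate 1 thus lay close to WT. The chaperonin CCT and prefoldin genes, which fold actin and tubulin, showed a like pattern, with 0.01, -0.15 and -0.16 in KO replicates 1, 2 and 3 and -0.05 to 0.05 in WT. They had lower means in 13 of 14 genes and a median of -0.10, with 0 past the threshold and 0 at an unadjusted p under 0.05.

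Chaperones of the endoplasmic reticulum and mitochondria had lower means in 14 of 15 genes, with a median of -0.09 and 0 past the threshold in limma. At an unadjusted p under 0.05, 1 was higher and 4 lower. Grpel1, the exchange factor of mitochondrial HSP70, was lowest by moderated t (-0.26, SE 0.08), and Dnajb9, a J-domain protein of the endoplasmic reticulum, was highest (0.33, SE 0.12). Cytosolic J-domain genes went both ways, with 6 of 13 higher, 7 lower and a median of -4.7e-05. At an unadjusted p under 0.05, 1 was higher, Dnajb4 at 0.26 (SE 0.09), and 0 passed in limma. The KO arrays of Dnajb4 all lay above the WT arrays, as in 5.94% of all probe sets. Dnajb2 was lowest (-0.14, SE 0.09). Of the 8 measured cytosolic HSP70 and HSP110 genes 3 were higher and 5 lower, with 0 past the threshold and 0 at an unadjusted p under 0.05. Their highest was Hspa2 (0.44, SE 0.20).

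**Figure D4:**
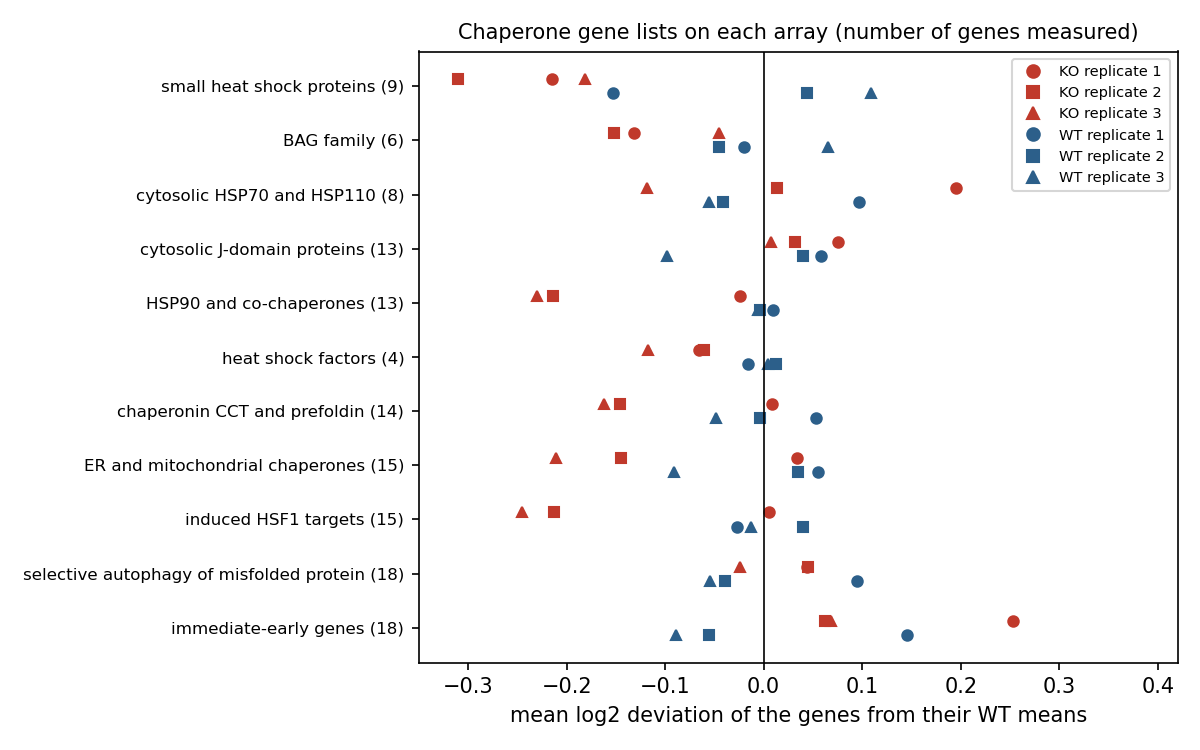
Mean deviation of each chaperone gene list from its WT means (log2 units, horizontal axis), 1 point per array, KO in red above WT in blue, with the number of measured genes beside each list. KO replicates 2 and 3 lie below the WT arrays for HSP90 and co-chaperones, chaperonins, organelle chaperones and HSF1 targets, while KO replicate 1 lies close to WT. The measured HSF1 targets are all on other lists of the figure too.

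Genes that HSF1 induces on heat shock had lower KO means in 14 of 15 measured genes, 7 of which are also members, and their median was -0.17. All 15 are also on the chaperone lists above, so these counts are not separate from those. In limma 0 passed, and 3 were lower and 0 higher at an unadjusted p under 0.05. Their mean deviation was 0.01, -0.21 and -0.25 in KO replicates 1, 2 and 3, against -0.03 to 0.04 in WT. The exception was Hspa1a, the stress-induced HSP70, which measured 8.16, 7.34 and 7.21 in the KO arrays, against 7.06, 7.34 and 7.15 in the WT arrays. KO replicate 1 stood above the other 5 arrays by more than their whole range, and the log2 difference of 0.39 (SE 0.22) did not pass (limma adjusted p = 0.672). Hspa1a shares a near-identical copy, Hspa1b, so its level is uncertain. A probe set annotated with both genes was left out.

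KO replicate 1 was also high for some immediate-early genes, which respond within minutes to handling or growth signals. Fos measured 8.07, 7.11 and 6.95 in the KO arrays, against 7.14, 6.91 and 6.57 in the WT arrays, and Fosb was likewise highest in KO replicate 1 (8.54). Both were singled out with their values in view. The 18 immediate-early genes deviated by 0.25, 0.06 and 0.07 in KO replicates 1, 2 and 3, against -0.09 to 0.14 in WT. Of these, 13 had higher KO means, 0 passed in limma, and 4 were higher and 0 lower at an unadjusted p under 0.05, led by Egr1 (0.42, SE 0.10). Among the KO arrays Egr1 was lowest in replicate 1 (8.22, against 8.28 and 8.24). The part of the immediate-early genes in the chaperone values was not tested. Hspb8 was at -1.40 in KO replicate 1 and at -2.33 and -2.42 in the other KO arrays.

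The heat shock factor genes that could be read, 4 of 5, had a median of -0.10. In limma 0 passed and 0 had an unadjusted p under 0.05. Hsbp1, which binds and restrains HSF1, was lowest by moderated t (-0.13, SE 0.07), and Hsf5 was highest (0.01, SE 0.08). For Hsbp1 every KO array lay below every WT array, as in 8.08% of all probe sets. Genes of the autophagy of misfolded protein, the route that HSPB8 and BAG3 feed, were evenly split, with 9 of 18 measured lower, 9 higher and a median of 0.01. In limma 0 passed, and 2 were higher and 0 lower at an unadjusted p under 0.05. By moderated t Map1lc3a, an LC3 of the autophagosome, was highest (0.18, SE 0.07) and Vcp, an unfolding ATPase, lowest (-0.20, SE 0.09). Partners of the HSPB8 and BAG3 complex were picked for their role, with their values in view. Stub1, which encodes CHIP, gave -0.15 (SE 0.08), the cargo receptor gene Sqstm1 -0.02 (SE 0.08) and Synpo2, which couples BAG3 to the autophagosome, -0.10 (SE 0.10).

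The genes whose profile over the 6 arrays was most like that of Hspb8 were Zdhhc2, Dnajc6, Sema7a, Clic6 and Mt2, by the smallest root mean square distance between centred log2 values among 17511 genes. Zdhhc2, a palmitoyltransferase, was nearest at a distance of 0.22. It measured 9.25, 7.59 and 8.04 in the KO arrays, against 10.1, 10.2 and 10.5 in the WT arrays. Dnajc6 followed at 0.25. It encodes auxilin, a J-domain protein that recruits the HSP70 of Hspa8 to strip clathrin from vesicles, and was on none of the lists. Dnajc6 measured 8.93, 7.57 and 7.71 in the KO arrays, against 9.81, 9.59 and 9.84 in the WT arrays. In both genes KO replicate 1 was the highest KO array, as for Hspb8. Sema7a, a membrane-anchored semaphorin, Clic6, of the chloride intracellular channel family, and Mt2, a metallothionein, lay at 0.35, 0.42 and 0.42. The log2 differences of the 5 ran from -2.003 (Mt2) to -1.39 (Sema7a), and they were picked for this likeness.

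The genes beside Hspb8 on chromosome 5 differed little. The 3 nearest measured protein-coding genes on either side, by the order in RefSeq (GRCm38.p6), were Cit, Prkab1 and Ccdc60 and, beyond Hspb8, Srrm4, Suds3 and Taok3. Their log2 differences lay between -0.15 (Prkab1) and 0.05 (Taok3), and 0 of the 6 passed in limma, while 0 had an unadjusted p under 0.05. Prkab1 had every KO array below every WT array, as did 8.08% of all probe sets. They were chosen by position after the members' values were known. Of the measured members only Hspa4 lies on chromosome 11, the chromosome of Jup.

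RNA of other cells was followed through marker lists. Stromal, muscle and endothelial markers were included since Hspb8 and Bag3 are best known from muscle. Of 24 measured, 16 had lower KO means, with a median of -0.06. In limma Foxc1 (-1.15), Sparc (-0.96) and Eng (-0.82) passed as lower and 0 as higher, and at an unadjusted p under 0.05 there were 4 lower and 1 higher. Of all probe sets, 0.0688% were called lower in KO and 0.0505% higher. Other markers of the list did not share such falls, among them Col1a1 (-0.07), Cdh5 (0.03) and Pecam1 (0.23), named with their values in view. The smooth muscle actin gene Acta2 gave -0.69 (SE 0.11) and Igfbp4, the highest of the list, 0.90 (SE 0.24), both named with their values in view. The differences thus ran from -1.15 to 0.90. The list's mean level was 7.16 to 7.24 in KO and 7.22 to 7.42 in WT, and 15 of the 24 lay below the array median on every array. Myeloid markers had higher KO means in 18 of 20, 3 of which passed in limma (Mpo, Elane and Ctsg) and 0 as lower, with a mean level of 8.44 to 8.49 in KO and 7.61 to 8.11 in WT. Their median was 0.66, the farthest from 0 of these marker lists. At an unadjusted p under 0.05, 15 of the 20 were higher and 0 lower, against 9.22% of all probe sets in either direction. Erythroid markers (11 of 13 measured, median -0.002) and T and NK cell markers (11 of 12 measured, median -0.04) had 1 and 0 members past the threshold in limma, the 1 being Car1, which was higher. Of the last 2 lists 1 gene each was higher and 1 each lower at an unadjusted p under 0.05. The part of these cells in the Hspb8 values was not tested.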

How the data were processed

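RNA of 3 KO and 3 WT samples was measured on 1-colour arrays. The authors deposited RMA values, whose range is that of a log2 scale. Per the submitters' processing notes the software was Affymetrix Expression Console 1.1, and its options and annotation are not stated there. RMA compresses differences of dim transcripts and removes shifts common to an array. Of 35556 rows 23410 are listed in the platform annotation, 1621 of them with several symbols, and 21789 probe sets with 1 symbol were tested.

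KO minus WT was fitted on all 6 arrays (R 4.3.3, limma 3.58.1, lmFit then eBayes, no covariate), two-sided, with Benjamini-Hochberg adjustment over all 21789 probe sets and a threshold of 0.05. The fit was tested on simulated data. Standard errors and 95% intervals are the moderated ones. Exact permutation of 3 against 3 arrays cannot go below p = 0.1, so none is given. Same-numbered KO and WT arrays deviated from their group means with correlations of 0.10, -0.004 and 0.27 across probe sets, so the numbers were not taken to pair the samples.

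The members, lists and tests were chosen with earlier results of these data known. Named genes are the members, list genes past the threshold, the highest and lowest of most lists by moderated t, and the 5 genes most like Hspb8, leaving out predicted genes and chemosensory receptors. Neither extreme is named for the chaperonin and the T and NK cell lists. The lowest is not named for the immediate-early, myeloid and erythroid lists. Depth does not apply to arrays, and their number limits the precision. Alternatives covered the filter, rows, probe sets, prior, weights, normalization, centring, replicate block, each array left out and the threshold.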

Additional observations from a re-analysis of the deposited data

How the results depend on the processing

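The median of the members, that of the members without Hspb8, the Hspb8 difference and that between Hspb8 and Bag3 kept their sign under all alternatives run and moved by less than the spread between arrays; leaving out 1 array gave -0.16 to -0.08, -0.13 to -0.07, -2.37 to -1.87 and -1.93 to -1.25. Probe sets called higher and lower, 11 and 15, were 17 and 23 with a trended and robust prior, 93 and 57 with array weights, 25 and 33 at an adjusted p of 0.1, 7 and 10 after a further quantile normalization, 17 and 19 with centred medians, 10 and 59 over all rows, and 1 to 41 and 3 to 41 with 1 array left out. With the replicate number as a block they were 8 and 11, and the members called lower in KO were 0. This count of members was 1 in the main fit and in the alternatives not named here (Hspb8, chosen for its fall, so a description only). It was also 0 over all rows, with the trended prior and after the quantile normalization. With 1 array left out it was 0 each time, except without KO replicate 1, where it was 1. The cause was not tested. Members called higher were 0 throughout. Signs turned for Dnajb1 with array weights (0.036) and centred medians (0.0050), and with 1 array left out for Hspb1 (-0.108 to 0.031, above 0 when KO replicate 2 or either of WT replicates 2 and 3 was left out), Cryab (-0.125 to 0.035, above 0 only without WT replicate 2) and Dnajb1 (-0.114 to 0.117, above 0 without KO replicate 3 or WT replicate 1). The filter on dim probe sets removed Hspb1 and Cryab.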
